A study of Mus musculus with 26 samples.

Results

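Pdcd1, Ctla4, Lag3, Havcr2, Tigit, Btla, Cd160 and Entpd1, which encode receptors or surface enzymes that restrain T cells, and Tox, which encodes a nuclear factor tied to T cell exhaustion, were followed across 9 libraries of mouse pmel-1 T cells. They were chosen by gene name. All 9 were found among the 15300 genes of the authors' normalized T cell table, and 5 of them (Tigit, Lag3, Havcr2, Ctla4 and Entpd1) were also among the 15629 genes of the normalized MC38/gp100 table. The labels call the genotype of the T cells WT. pmel-1 T cells come from mice with a transgenic receptor for the melanoma antigen gp100. They were kept in IL-2 and received 0.5 uM MRTX1719, 0.5 uM GSK3326595 or DMSO for 3 days, in 3 libraries each. MC38/gp100, a colon adenocarcinoma line that carries gp100, was studied as an Mtap knockout (KO) and a wild-type (WT) line, each with the same 3 treatments for 5 days. Those 6 groups had 3 libraries each, apart from WT cells with MRTX1719, which had 2. The labels leave unsaid whether the KO line is 1 clone and whether replicates are separate cultures or animals. The p-values therefore measure no more than the spread between libraries, and that spread may be technical.

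Both compounds inhibit PRMT5, an enzyme that methylates arginine residues on histones and on proteins of the splicing machinery. MRTX1719 binds PRMT5 together with methylthioadenosine (MTA), which builds up in cells that lack the MTA-clearing enzyme Mtap, whereas GSK3326595 does not need MTA. The T cells had no Mtap deletion, and Mtap RNA stood at 83.8 to 87.4 CPM with MRTX1719, 79.1 to 79.9 CPM with GSK3326595 and 75.0 to 82.6 CPM with DMSO. In replicates 2 and 3 the treatment label ends GSK3326595 with another digit, whereas the titles keep the name. All were read as 1 compound.

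Activated T cells put inhibitory receptors on their surface, where ligands on tumour cells or antigen-presenting cells trigger phosphatases and dampen signals from the T cell receptor. High and lasting levels of several such receptors, together with TOX, are a hallmark of exhausted CD8 T cells, while short-lived expression also follows normal activation. The RNA of a receptor does not report how much of it reaches the surface.

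Library totals ran from 13813406 to 20772699 counts in T cells and from 19302768 to 27786226 counts in MC38 cells. By Cd8a and Cd4 the T cell libraries were of CD8 type. Cd8a averaged 597 CPM with MRTX1719, 840.5 CPM with GSK3326595 and 558 CPM with DMSO, whereas Cd4 stayed at or below 0.757 CPM in every library. Zbtb7b, another CD4 T cell marker, averaged 34.7 CPM with MRTX1719, 30.4 CPM with GSK3326595 and 40.2 CPM with DMSO. Markers of other lineages were in part detected. No counts were found for 2 of 8 B cell markers (Ms4a1 and Blk), 4 of 11 myeloid markers (Lyz2, Cd163, Flt3 and S100a8) and 1 of 9 NK cell markers (Ncr1). Among the others, means over the 3 treatments ran from 3.38 to 5.10 CPM for the B cell gene Cd79b, from 6.55 to 9.69 CPM for the myeloid gene Cd68, from 5.55 to 8.885 CPM for the NK cell gene Klrb1c, from 11.2 to 15.4 CPM for Fcer1g, and from 154 to 191.5 CPM for Eomes, which CD8 T cells also express. Ighm, an immunoglobulin heavy chain gene, averaged 148 CPM with MRTX1719, 179 CPM with GSK3326595 and 178 CPM with DMSO. In MC38 cells Mtap stood at 203 to 276 CPM over the KO libraries, against 388 to 422 CPM over the WT libraries, so the targeted gene was lower in every KO library but not absent. The labels do not say which part of Mtap was deleted. In such bulk libraries, fewer cells of a kind and less RNA per cell cannot be told apart.

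To compare the genes with each other, CPM (each gene's count as a share of its library, after TMM scaling of the library sizes) was divided by the length of all exons of a gene in kilobases. With DMSO, Ctla4 and Cd160 had the highest levels, at 14.8 ± 0.800 and 14.8 ± 1.01 CPM per kb (SD, n = 3), and their libraries overlapped. Havcr2 followed at 12.7 ± 0.550, Entpd1 at 10.7 ± 0.241 and Tigit at 9.26 ± 0.716 CPM per kb, each clear of its neighbours in the order. Btla at 7.42 ± 0.274 and Lag3 at 7.32 ± 0.612 CPM per kb overlapped. Pdcd1 lay below them at 3.95 ± 0.477 CPM per kb, and Tox came last at 0.492 ± 0.0642 CPM per kb. In each T cell group Pdcd1 and Tox were the lowest of the 9, and Tox rested on 46 to 96 counts per library.

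With both compounds Cd160 stood first in the order, at 19.4 ± 0.325 CPM per kb with MRTX1719 and 24.6 ± 1.12 CPM per kb with GSK3326595, and Ctla4 and Tigit came next. Havcr2 came next with MRTX1719, at 11.9 ± 0.701 CPM per kb, and overlapped with Tigit. With GSK3326595 it stood below Lag3, Btla and Entpd1, at 7.52 ± 0.538 CPM per kb, and overlapped with Entpd1. The place of Tigit in the order rests on its exon length of 919 bases, the shortest among these genes. By mean CPM it stood above only Pdcd1 and Tox in each T cell group. The annotation used for counting is not given, so these lengths may not match it.

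**Figure D1:**
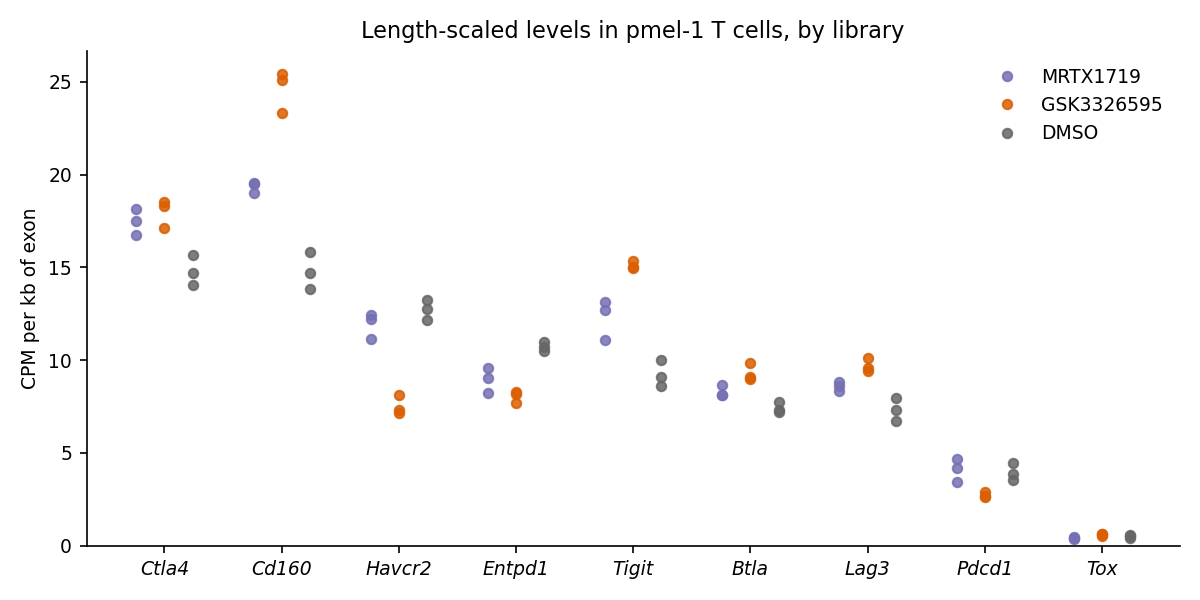
Level of each gene in CPM per kilobase of exon (y axis), with 1 point per T cell library, for MRTX1719, GSK3326595 and DMSO from left to right within each gene. Genes run from the highest to the lowest DMSO mean (14.8 CPM per kb for Ctla4, 0.492 CPM per kb for Tox), and Cd160 stands highest with both compounds.

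Promoter sequence is shown for Tigit and Ctla4, which were called higher with both compounds, and for Pdcd1 and Havcr2, which were called lower with GSK3326595 and not called with MRTX1719 (values below). Cd160 and Lag3 were also called higher with both. The promoter sequences of Cd160 are not shown, and Lag3 had no matched promoter. Each run below holds the 250 bases before the RefSeq start site (GRCm38.p6), 5′ to 3′ on the gene's strand: Tigit at chr16:43664185-43664434 on the minus strand, Ctla4 at chr1:60908775-60909024 on the plus strand, Pdcd1 at chr1:94052554-94052803 on the minus strand and Havcr2 at chr11:46454681-46454930 on the plus strand. Capitals mark matches, on either strand, to the core motif of NFAT (GGAAA, read TTTCC on the other strand), to the AP-1 motif (TGANTCA) and to the core motif of TCF and LEF factors (CTTTGA).
Tigit: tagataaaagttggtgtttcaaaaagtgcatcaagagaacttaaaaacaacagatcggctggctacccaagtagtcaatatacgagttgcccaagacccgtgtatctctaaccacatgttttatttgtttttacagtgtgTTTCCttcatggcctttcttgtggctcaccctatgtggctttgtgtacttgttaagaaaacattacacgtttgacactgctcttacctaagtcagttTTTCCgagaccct
Ctla4: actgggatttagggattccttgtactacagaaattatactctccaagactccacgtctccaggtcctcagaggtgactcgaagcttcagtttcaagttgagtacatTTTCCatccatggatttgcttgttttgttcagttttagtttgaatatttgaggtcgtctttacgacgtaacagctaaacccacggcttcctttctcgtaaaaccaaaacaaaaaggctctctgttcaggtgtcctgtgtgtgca
Pdcd1: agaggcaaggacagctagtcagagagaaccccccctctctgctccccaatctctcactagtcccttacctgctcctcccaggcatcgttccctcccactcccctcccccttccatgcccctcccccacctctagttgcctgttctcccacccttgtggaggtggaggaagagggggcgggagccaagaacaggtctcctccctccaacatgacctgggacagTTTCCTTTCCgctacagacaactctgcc
Havcr2: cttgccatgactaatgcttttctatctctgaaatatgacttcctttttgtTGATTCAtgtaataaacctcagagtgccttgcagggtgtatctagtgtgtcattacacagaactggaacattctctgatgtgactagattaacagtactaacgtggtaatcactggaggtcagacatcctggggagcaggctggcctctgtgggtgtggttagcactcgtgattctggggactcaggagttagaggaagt
Tigit and Pdcd1 held 2 NFAT cores each, the pair in Pdcd1 being adjacent, and Ctla4 held 1. Havcr2 held 1 AP-1 motif and no NFAT core. RefSeq promoters were matched for 7 of the 9 genes, with 9 start sites in all, since Cd160 and Entpd1 have 2 each. Across these 9 start sites the NFAT core was found in 5, the AP-1 motif in 1 and the TCF/LEF core in 1 (the second start site of Cd160). No matches overlapped. Over all 32851 RefSeq promoters of the same length, 55.6% held the NFAT core, 6.75% the AP-1 motif and 13.8% the TCF/LEF core. A match only describes the letters in this window. For Tigit and Havcr2 the bases after the RefSeq start were not found in a GENCODE M21 transcript, so the windows of these 2 genes, and the motifs counted in them, rest on RefSeq's start site alone.

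With GSK3326595 the inhibitory receptors did not move as a block. Cd160, Tigit, Lag3, Btla and Ctla4 were higher than with DMSO, Havcr2, Pdcd1 and Entpd1 were lower, and Tox did not pass the test. That made 8 of 9 genes called at an adjusted p under 0.05, beside 52.8% of the 13753 genes tested (26.6% higher and 26.2% lower). Libraries of the 2 groups did not overlap for 8 of the 9 genes, beside 58.1% of all genes tested. The median log2 fold change of the 9 was 0.32 and that of all genes was -0.0033. Unless DESeq2 is named, each adjusted p comes from the quasi-likelihood test of edgeR, adjusted over every gene tested by Benjamini-Hochberg. After a log2 fold change, ± gives the standard error.

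Cd160 (ENSMUSG00000038304), a GPI-anchored receptor that binds HVEM, had 66.3, 61.6 and 67.2 CPM with GSK3326595, against 41.8, 36.5 and 38.9 CPM with DMSO. Its log2 fold change was 0.73 ± 0.056, or 1.66-fold (adjusted p = 6.61e-21). Tigit (ENSMUSG00000071552), a receptor that competes with the co-stimulatory receptor CD226 for the ligands PVR and nectin-2, had 13.8, 13.8 and 14.1 CPM with GSK3326595, against 7.92, 8.38 and 9.21 CPM with DMSO. Both genes were higher in each treated library than in any DMSO library, and the change in Tigit was 0.71 ± 0.11 (adjusted p = 2.68e-08).

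Lag3 (ENSMUSG00000030124), a receptor related to CD4 that binds MHC class II and FGL1, had 20.2, 19.9 and 21.3 CPM with GSK3326595, against 14.2, 15.4 and 16.7 CPM with DMSO, a log2 fold change of 0.41 ± 0.087 (adjusted p = 2.72e-05). Btla (ENSMUSG00000052013), the other HVEM receptor of the set, had 30.6, 30.9 and 33.5 CPM with GSK3326595, against 24.6, 26.3 and 24.8 CPM with DMSO (0.33 ± 0.070, adjusted p = 3.03e-05). Ctla4 (ENSMUSG00000026011), which takes CD80 and CD86 away from CD28, had 42.6, 39.9 and 43.1 CPM with GSK3326595, against 34.3, 36.5 and 32.8 CPM with DMSO (0.28 ± 0.062, adjusted p = 5.67e-05). These 3 differences were smaller than those of Cd160 and Tigit, and again no treated library overlapped with a DMSO library.

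Havcr2 (ENSMUSG00000020399), which encodes TIM-3, had 22.1, 19.4 and 19.8 CPM with GSK3326595, against 33.0, 36.1 and 34.7 CPM with DMSO. It fell by 0.75 ± 0.072 on the log2 scale, 1.68-fold (adjusted p = 7.92e-16), the largest drop among the 9. Pdcd1 (ENSMUSG00000026285), which encodes PD-1, had 5.62, 5.10 and 5.19 CPM with GSK3326595, against 8.61, 7.45 and 6.79 CPM with DMSO, and its log2 fold change was -0.52 ± 0.14 (adjusted p = 0.00105). The TIM-3 and PD-1 genes thus fell while the genes of the other inhibitory receptors rose, and the groups did not overlap for either.

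Entpd1 (ENSMUSG00000048120) encodes CD39, the surface enzyme that breaks down extracellular ATP on the way to adenosine. It had 42.8, 45.6 and 46.3 CPM with GSK3326595, against 58.5, 59.7 and 61.2 CPM with DMSO, a log2 fold change of -0.41 ± 0.056 (adjusted p = 5.75e-10). Tox (ENSMUSG00000041272) had 4.91, 4.91 and 4.09 CPM with GSK3326595, against 3.22, 4.19 and 3.82 CPM with DMSO. The Tox groups overlapped, and the log2 fold change of 0.32 had a 95% interval of -0.04 to 0.67 (adjusted p = 0.131). Tox shares 260 exon bases with the antisense gene Gm11802, and Cd160 shares 68 with Pdzk1 on the opposite strand. No source used here gives the strand setting of the counting, so reads from the shared bases of these pairs cannot be told apart.

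**Figure D2:**
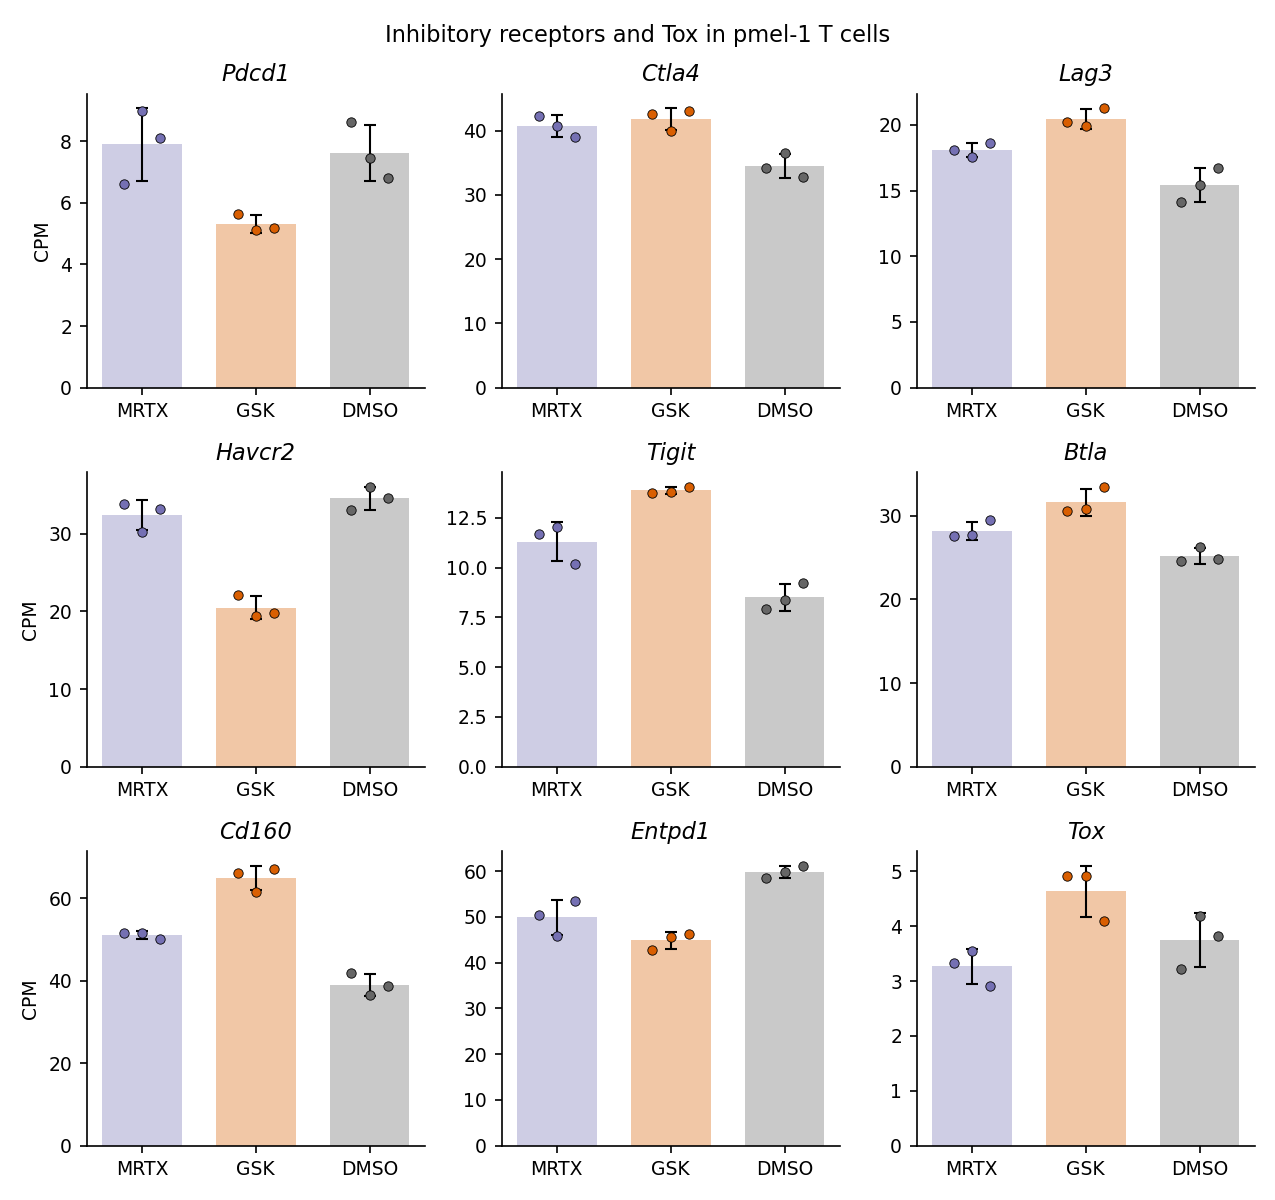
CPM in pmel-1 T cells (y axis, a scale of its own in each panel) with MRTX1719 (MRTX), GSK3326595 (GSK) and DMSO. Points are libraries, bars are means and whiskers are SD (n = 3); Havcr2 and Pdcd1 are lowest with GSK3326595, while Cd160 and Tigit are highest with it and intermediate with MRTX1719.

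MRTX1719 gave smaller changes in T cells and left the TIM-3 and PD-1 genes without a call. Tigit, Cd160, Lag3 and Ctla4 were higher than with DMSO and Entpd1 was lower, while Btla, Havcr2, Pdcd1 and Tox did not pass the test. Those 5 of 9 called genes stand beside 37.4% of all genes tested (18.9% higher and 18.5% lower). Libraries did not overlap for 6 of the 9, beside 45.7% of all genes. The median log2 fold change was 0.17. This comparison and the previous one use the same DMSO libraries.

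Tigit had 11.7, 12.1 and 10.2 CPM with MRTX1719, against the 7.92 to 9.21 CPM with DMSO, and Cd160 had 51.5, 51.7 and 50.1 CPM, against 36.5 to 41.8 CPM. Neither overlapped with DMSO, and the log2 fold changes were 0.41 ± 0.11 for Tigit (adjusted p = 0.00252) and 0.38 ± 0.058 for Cd160 (adjusted p = 4.53e-08). Ctla4 had 42.3, 40.8 and 39.0 CPM with MRTX1719, a log2 fold change of 0.24 ± 0.063 over DMSO (adjusted p = 0.00149). Entpd1 had 50.5, 45.9 and 53.4 CPM with MRTX1719, all below the DMSO libraries, and fell by 0.26 ± 0.056 on the log2 scale (adjusted p = 8.17e-05).

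Lag3 had 18.1, 17.6 and 18.6 CPM with MRTX1719, a log2 fold change of 0.24 ± 0.089 over DMSO (adjusted p = 0.0283). That call was lost when DMSO replicate 1, DMSO replicate 2 or MRTX1719 replicate 3 was left out (adjusted p = 0.199, 0.0526 and 0.0881) and in DESeq2 (adjusted p = 0.0743). Btla had 27.6, 27.7 and 29.5 CPM with MRTX1719, above every DMSO library, but its log2 fold change of 0.17 ± 0.072 missed the threshold (adjusted p = 0.0534). With RLE scaling its adjusted p was 0.0463, and without DMSO replicate 2 it was 0.043.

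For the 3 other genes the treated and DMSO libraries overlapped. Havcr2 had 33.9, 30.3 and 33.2 CPM with MRTX1719, and its log2 fold change of -0.09 had a 95% interval of -0.23 to 0.05 (adjusted p = 0.32). Pdcd1 had 6.60, 8.97 and 8.10 CPM, a log2 fold change of 0.06 with an interval of -0.21 to 0.32 (adjusted p = 0.785). Tox had 3.33, 3.55 and 2.92 CPM, a log2 fold change of -0.19 with an interval of -0.57 to 0.19 (adjusted p = 0.463). A change of the size seen in Havcr2 with GSK3326595 lies outside the interval for MRTX1719, whereas for Tox neither compound gave an interval narrow enough to speak of no change.

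Set against each other at the same dose and time, the compounds differed most in Havcr2. It was higher with MRTX1719 than with GSK3326595 by 0.66 ± 0.072 on the log2 scale (adjusted p = 5.58e-13), and Pdcd1 by 0.58 ± 0.14 (adjusted p = 0.000403). Cd160 was lower with MRTX1719, with a log2 fold change of -0.35 ± 0.054 (adjusted p = 5.47e-08). No MRTX1719 library overlapped with a GSK3326595 library in any of the 3 genes. In all, 3 of the 9 genes were higher and 3 lower with MRTX1719, beside 39.1% of all genes tested (19.3% higher and 19.7% lower). Libraries did not overlap for 7 of the 9, beside 46.6% of all genes.

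The other 3 calls were less firm. Tigit was lower with MRTX1719 (-0.30 ± 0.10, adjusted p = 0.0138), as was Tox (-0.51 ± 0.18, adjusted p = 0.0191), and Entpd1 was higher (0.16 ± 0.057, adjusted p = 0.0228). Without MRTX1719 replicate 3 none of them passed (adjusted p = 0.141 for Tigit, 0.112 for Tox and 0.21 for Entpd1). Leaving out GSK3326595 replicate 1 ended the calls of Tox (adjusted p = 0.0728) and Entpd1 (adjusted p = 0.14), leaving out GSK3326595 replicate 2 that of Tox (adjusted p = 0.0547), and DESeq2 called 3 of the 9 genes.

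Ctla4 gave no call between the compounds, and the interval of its difference, -0.17 to 0.07 on the log2 scale, was narrow. Lag3 (-0.18 ± 0.084, adjusted p = 0.0867) and Btla (-0.16 ± 0.069, adjusted p = 0.0506) did not pass either. Without GSK3326595 replicate 1 or MRTX1719 replicate 3, Btla passed (adjusted p = 0.0481 and 0.0497).

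**Figure D3:**
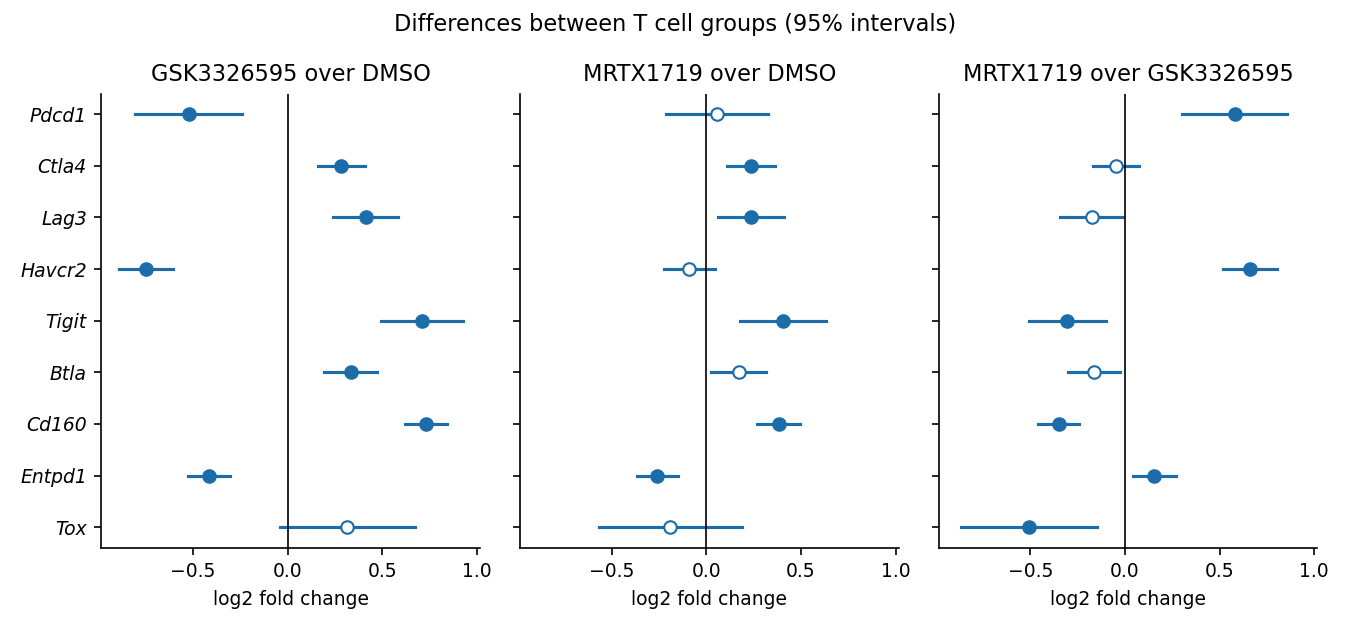
Log2 fold change (x axis) of each gene for GSK3326595 over DMSO, MRTX1719 over DMSO and MRTX1719 over GSK3326595 in T cells. Lines are 95% intervals, filled points passed an adjusted p of 0.05 and open points did not; Havcr2 lies at -0.75 in the first panel and at -0.09 in the second.

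Of 15 other inhibitory receptors tested, 7 were higher with GSK3326595 and none lower, and 3 were higher with MRTX1719 and none lower. Over all genes tested, 26.6% were higher and 26.2% lower with GSK3326595, and 18.9% were higher and 18.5% lower with MRTX1719. Over the 20 genes of the list the summed level was 749 to 764 CPM with MRTX1719, 797 to 809 CPM with GSK3326595 and 655 to 838 CPM with DMSO. The wide DMSO range came mostly from Lilrb4b, at 345.5 to 531 CPM with DMSO. Klrd1 and Klrc1, the CD94 and NKG2A chains of an inhibitory receptor for Qa-1, led both. Klrd1 averaged 49.4 CPM with GSK3326595 and 17.2 CPM with DMSO, a log2 fold change of 1.53 ± 0.071 (adjusted p = 7.3e-35), and 34.8 CPM with MRTX1719 (1.01 ± 0.074, adjusted p = 3.4e-21). Klrc1 changed by 1.81 ± 0.18 with GSK3326595 (adjusted p = 2.12e-15) and by 1.01 ± 0.19 with MRTX1719 (adjusted p = 1.05e-05). These log2 fold changes exceeded those of all 9 genes above. Pecam1, an adhesion receptor with inhibitory motifs, was higher with GSK3326595 (1.02 ± 0.075, adjusted p = 9.67e-22).

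Among 16 co-stimulatory receptors tested, 10 were higher and 5 lower with GSK3326595, and 6 were higher and 2 lower with MRTX1719. Of all genes tested, 52.8% were called with GSK3326595 and 37.4% with MRTX1719, in either direction. Cd226, the receptor that shares ligands with Tigit, averaged 38.0 CPM with GSK3326595 and 26.6 CPM with DMSO (0.51 ± 0.068, adjusted p = 2.48e-10). With MRTX1719 it averaged 26.6 CPM, a log2 fold change of -0.01 ± 0.072 (adjusted p = 0.952), and it was lower with MRTX1719 than with GSK3326595 by a log2 fold change of -0.52 ± 0.068 (adjusted p = 2.87e-10). Tigit was therefore higher together with Cd226 in GSK3326595 cells and without it in MRTX1719 cells. Cd27, a TNF-family receptor of memory precursors, averaged 104.6 CPM with GSK3326595 and 54.1 CPM with DMSO (0.95 ± 0.048, adjusted p = 9.35e-32). In the other direction, Cd28 was lower with MRTX1719 than with DMSO (-0.33 ± 0.050, adjusted p = 1.95e-07). Tnfrsf9 averaged 105.8 CPM with GSK3326595 and 185 CPM with MRTX1719, a log2 fold change of 0.81 ± 0.040 for MRTX1719 over GSK3326595 (adjusted p = 1.48e-32).

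Of 27 transcription factors tied to exhaustion other than Tox, 10 were higher and 12 lower with GSK3326595, and 4 were higher and 10 lower with MRTX1719. These counts stand beside 52.8% and 37.4% of all genes called with GSK3326595 and MRTX1719. Tcf7, which encodes TCF-1 and keeps T cells in a stem-like state, averaged 111.9 CPM with GSK3326595 and 28.0 CPM with DMSO (adjusted p = 1.54e-51), and 45.0 CPM with MRTX1719 (0.69 ± 0.061, adjusted p = 5.83e-17). Id3, another gene of that state, was higher with GSK3326595 (0.88 ± 0.13, adjusted p = 1.36e-08). Batf3, an AP-1 family factor, averaged 6.97 CPM with GSK3326595 and 37.8 CPM with DMSO, a log2 fold change of -2.43 ± 0.086 (adjusted p = 3.49e-43). Egr2, which is induced by T cell receptor signals, fell by 1.62 ± 0.16 with GSK3326595 (adjusted p = 6.54e-15) and by 0.64 ± 0.15 with MRTX1719 (adjusted p = 0.000222), on the log2 scale.

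Downstream of the receptors, 9 of 22 genes for inhibitory signalling and receptor turnover were higher and 3 lower with GSK3326595, and 6 were higher and 6 lower with MRTX1719. Dgka, a diacylglycerol kinase that limits signals from the T cell receptor, averaged 581 CPM with GSK3326595 and 357 CPM with DMSO (0.70 ± 0.035, adjusted p = 3.4e-32). Sh2d1a, the adaptor SAP, was higher with both GSK3326595 (0.93 ± 0.066, adjusted p = 1.24e-22) and MRTX1719 (0.61 ± 0.068, adjusted p = 1.51e-12). In the adenosine pathway around Entpd1, 6 of 12 genes were higher and 3 lower with GSK3326595, and 4 were higher and 1 lower with MRTX1719. For both lists the share called over all genes was 52.8% with GSK3326595 and 37.4% with MRTX1719. Nt5e, which encodes CD73, the enzyme that acts after CD39, was the 1 lower gene with MRTX1719 (-0.36 ± 0.11, adjusted p = 0.00615). It averaged 9.24 CPM with MRTX1719, 13.4 CPM with GSK3326595 and 11.8 CPM with DMSO. Ada (0.27 ± 0.086, adjusted p = 0.00904) and Slc29a1 (0.24 ± 0.053, adjusted p = 0.000113) were among the 4 higher with MRTX1719. These lists were drawn up with earlier results of the same libraries known, so their counts are a description.

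Other marker lists moved with the treatments, and their part in the differences above was not tested. The counts of called genes here stand beside 52.8% of all genes with GSK3326595 and 37.4% with MRTX1719. Over 13 genes of CD8 T cell identity, 9 were higher and 1 lower with GSK3326595, and 8 were higher with MRTX1719. Their summed level was 6158 to 6291 CPM with MRTX1719, 6843 to 6887 CPM with GSK3326595 and 5458 to 5499 CPM with DMSO. The 9 NK cell markers summed to 204 to 209 CPM with MRTX1719, 212 to 221 CPM with GSK3326595 and 171 to 187 CPM with DMSO. The 8 B cell markers summed to 148 to 158 CPM with MRTX1719, 184 to 186 CPM with GSK3326595 and 180 to 184 CPM with DMSO, mostly Ighm. The 11 myeloid markers summed to 6.35 to 8.20 CPM with MRTX1719, 8.69 to 9.69 CPM with GSK3326595 and 10.3 to 10.9 CPM with DMSO. The 4 CD4 T cell markers, mostly Zbtb7b, summed to 34.5 to 38.8, 30.1 to 33.9 and 40.3 to 42.6 CPM in the same order of treatments. Of 8 tested genes that respond to handling or to RNA quality, 5 were lower with GSK3326595, led by Fosb (-2.81 ± 0.14), Neat1 (-1.39 ± 0.039) and Egr1 (-1.35 ± 0.039), and 6 were lower and 1 higher with MRTX1719.

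In MC38/gp100 tumour cells, Tigit RNA was present in every library. In the KO line it was higher with both compounds, more so with MRTX1719 than with GSK3326595, while in the WT line it was higher with GSK3326595 and did not pass the test with MRTX1719. In KO cells Tigit had 17.1, 15.0 and 16.9 CPM with MRTX1719, 9.62, 10.6 and 11.3 CPM with GSK3326595, and 2.41, 3.15 and 2.24 CPM with DMSO. In WT cells it had 12.1 and 10.6 CPM with MRTX1719, 19.5, 18.9 and 18.1 CPM with GSK3326595, and 9.46, 10.4 and 9.52 CPM with DMSO. Under DMSO the KO libraries lay far below the WT libraries.

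In KO cells the log2 fold change of Tigit over DMSO was 2.63 ± 0.11 with MRTX1719 (6.19-fold, adjusted p = 1.55e-50) and 2.01 ± 0.11 with GSK3326595 (4.02-fold, adjusted p = 8.66e-35). In WT cells it was 0.21 with MRTX1719, with a 95% interval of 0.02 to 0.39 (adjusted p = 0.176), and 0.94 ± 0.075 with GSK3326595 (adjusted p = 1.27e-22). Without treatment, KO cells had less Tigit than WT cells, with a log2 fold change of -1.91 ± 0.12 (adjusted p = 8.79e-33). The effect of MRTX1719 was larger in KO than in WT cells by 2.42 ± 0.15 on the log2 scale (adjusted p = 4.88e-33), and that of GSK3326595 by 1.07 ± 0.14 (adjusted p = 1.64e-10). Both differences of effect start from the lower DMSO level of the KO line, and the comparisons within a line share its DMSO libraries.

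The order of the compounds turned round between the lines. Tigit was higher with MRTX1719 than with GSK3326595 in KO cells (0.62 ± 0.077, adjusted p = 3.18e-12) and lower in WT cells (-0.73 ± 0.081, adjusted p = 6.04e-14), with no overlap of libraries in either line. In T cells Tigit was also lower with MRTX1719 (-0.30). That edgeR call was lost without MRTX1719 replicate 3 (adjusted p = 0.141) and in DESeq2 (adjusted p = 0.0664). T cells and MC38 cells were deposited and normalized in separate tables, so a difference between them was not tested.

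The genes whose pattern over the 17 MC38 libraries was most like that of Tigit, by Pearson correlation of log2 CPM, were Gfra1 (r = 0.981), Tm4sf1 (r = 0.98) and Tmsb4x (r = 0.975). Gfra1, which encodes a receptor for GDNF, averaged 68.4 CPM in KO cells with MRTX1719, 48.7 CPM with GSK3326595 and 21.2 CPM with DMSO, and 62.1, 78.4 and 49.9 CPM in WT cells in the same order of treatments. Over the 9 T cell libraries Tox was most like Nudt22 (r = 0.966), Gm10353 (r = 0.965) and Gm26583 (r = 0.941). These libraries fall into few groups, so the correlations mostly restate the group means.

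Leukocyte markers were low but mostly not absent in MC38 cells. Over 12 leukocyte markers, the summed level was 8.05 to 9.69 CPM with MRTX1719, 6.76 to 7.64 CPM with GSK3326595 and 6.07 to 6.75 CPM with DMSO in KO cells, and 6.87 to 7.04, 5.39 to 7.39 and 5.19 to 5.87 CPM in WT cells in the same order of treatments. Most of each sum was Lck, which averaged 5.67 CPM in KO cells with MRTX1719, 4.10 CPM in KO cells with DMSO and 3.53 CPM in WT cells with DMSO. Lck was thus above Tigit (2.60 CPM) in KO cells with DMSO. Gzmb, which encodes granzyme B and is not among the 12, averaged 1.49 CPM in KO cells with MRTX1719, 1.23 CPM with GSK3326595 and 0.734 CPM with DMSO, and was called higher with both compounds (adjusted p = 0.000991 with MRTX1719 and 0.0234 with GSK3326595). Cd3e averaged 0.115 CPM in KO cells with MRTX1719 and 0.133 CPM with DMSO, and Cd8a 0.605 and 0.349 CPM. Cd226 had at most 2 counts in any MC38 library. Tigit at 15.0 to 17.1 CPM in KO cells with MRTX1719 stood above the sum of all 12 leukocyte markers in the same group, whereas at 2.24 to 3.15 CPM in KO cells with DMSO it stood below that sum. Of the 5 leukocyte markers tested, 1 was called in KO cells with MRTX1719 and 1 in WT cells with GSK3326595, both higher, and none in the other 2 treated groups against DMSO. Over all genes, the share called with MRTX1719 was 70.5% in KO and 7.53% in WT cells. With GSK3326595 it was 52.8% in KO and 41.1% in WT cells.

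Other marker lists also differed between the MC38 groups, some in the opposite direction to Tigit, and their part in its differences was not tested. In KO cells the 9 NK cell markers summed to 67.4 to 70.7 CPM with MRTX1719 and 67.7 to 73.9 CPM with GSK3326595. With DMSO that sum was 59.3 to 62.0 CPM. WT cells had 98.9 to 103.7, 104.7 to 108 and 101.2 to 104.6 CPM in the same order of treatments. The 8 B cell markers summed to 1.66 to 2.24, 1.375 to 1.91 and 2.21 to 2.61 CPM in KO cells. In WT cells they summed to 7.15 to 7.17, 4.43 to 5.055 and 6.14 to 7.56 CPM. The 11 myeloid markers summed to 34.9 to 39.6 CPM with MRTX1719, 29.3 to 32.4 CPM with GSK3326595 and 23.6 to 25.6 CPM with DMSO in KO cells, and to 29.49 to 29.97, 29.9 to 30.8 and 30.7 to 32.4 CPM in WT cells in the same order of treatments. Cd14, a myeloid receptor for lipopolysaccharide, was higher in KO cells with MRTX1719 (0.86 ± 0.079, adjusted p = 1.55e-19) and with GSK3326595 (0.38 ± 0.083, adjusted p = 3.71e-05). The 10 genes that respond to handling or RNA quality summed to 990 to 1018 CPM with MRTX1719, 1185 to 1204 CPM with GSK3326595 and 1486 to 1535 CPM with DMSO in KO cells, and to 2539 to 2542, 2416 to 2490 and 3016 to 3043 CPM in WT cells. Fosb fell by 2.54 ± 0.072 on the log2 scale in KO cells with MRTX1719 and by 1.60 ± 0.061 with GSK3326595, and under DMSO it was lower in KO than in WT cells by a log2 fold change of -2.63 ± 0.037.

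**Figure D4:**
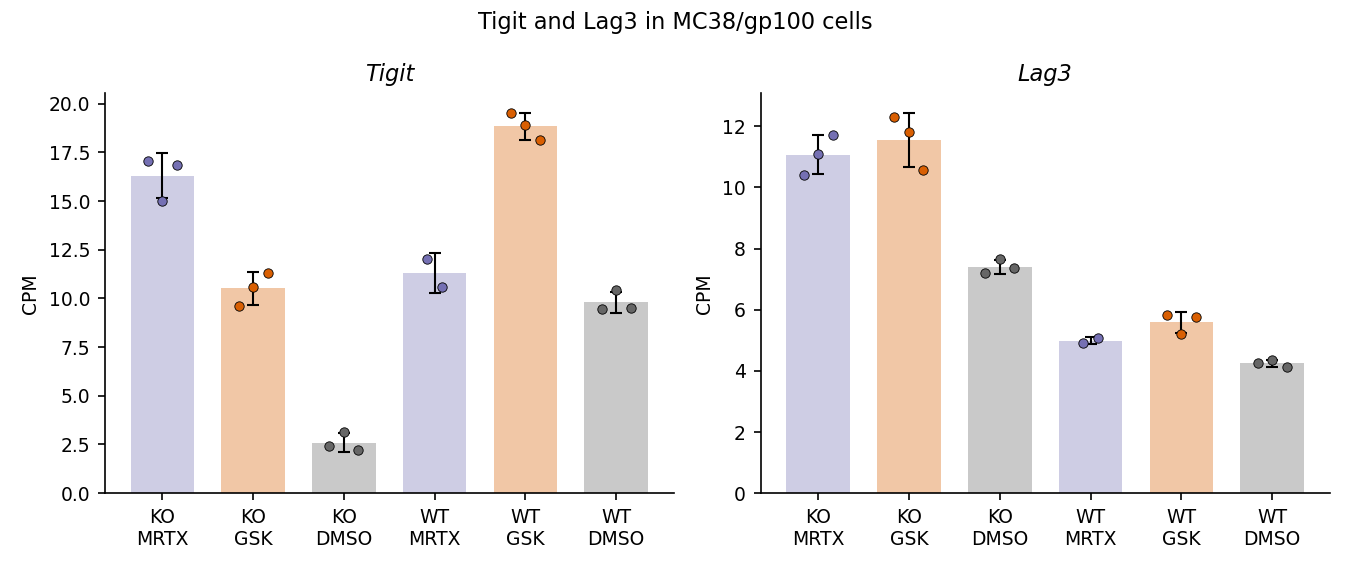
CPM of Tigit and Lag3 (y axes) in MC38/gp100 KO and WT cells with MRTX1719 (MRTX), GSK3326595 (GSK) and DMSO. Points are libraries, bars are means and whiskers are SD (n = 3, or 2 for WT with MRTX1719); Tigit is lowest in KO cells with DMSO (2.60 CPM) and highest in WT cells with GSK3326595 (18.9 CPM).

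Lag3 was the only other of these genes above 1 CPM in MC38 cells, and there the KO line was the higher one. In KO cells it had 10.4, 11.1 and 11.7 CPM with MRTX1719, 12.3, 11.8 and 10.6 CPM with GSK3326595, and 7.19, 7.64 and 7.37 CPM with DMSO. In WT cells it had 4.91 and 5.07 CPM with MRTX1719, 5.81, 5.20 and 5.76 CPM with GSK3326595, and 4.26, 4.36 and 4.13 CPM with DMSO. Every treated library lay above the DMSO libraries of its own line.

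In KO cells Lag3 was higher with MRTX1719 by 0.58 ± 0.091 on the log2 scale (adjusted p = 8.62e-09) and with GSK3326595 by 0.64 ± 0.089 (adjusted p = 3.25e-10). In WT cells the change was 0.39 ± 0.11 with GSK3326595 (adjusted p = 0.00262), and 0.23 ± 0.13 with MRTX1719, which did not pass (adjusted p = 0.321). Under DMSO, KO cells exceeded WT cells by 0.80 ± 0.11 (adjusted p = 6.42e-11). The effects did not differ between the lines at the threshold, neither for GSK3326595 (0.24 ± 0.15, adjusted p = 0.177) nor for MRTX1719 (0.35 ± 0.16, adjusted p = 0.0504). The MRTX1719 value passed with RLE scaling (adjusted p = 0.0494) and without KO MRTX1719 replicate 1 (adjusted p = 0.034). Tigit and Lag3 thus both rose with the compounds in KO cells but lay on opposite sides of WT cells under DMSO.

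Havcr2, Ctla4 and Entpd1 stayed under 1 CPM in every MC38 library. Havcr2 averaged 0.178 CPM in KO cells and 0.710 CPM in WT cells under DMSO, a log2 fold change of -1.99 ± 0.46 (adjusted p = 4.05e-05). Ctla4 had 5 to 12 counts per KO library with GSK3326595, 8 or 9 with MRTX1719 and 1 to 5 with DMSO, and both treated groups passed the test (adjusted p = 0.0448 with GSK3326595 and 0.00866 with MRTX1719) but not in DESeq2 (adjusted p = 0.151 and 0.0568). Without KO DMSO replicate 3 neither passed (adjusted p = 0.189 with GSK3326595 and 0.0604 with MRTX1719), and the GSK3326595 call was also lost without KO DMSO replicate 1 (adjusted p = 0.134) or KO GSK3326595 replicate 1 or 2 (adjusted p = 0.0519 and 0.243). Entpd1 was higher in KO than in WT cells under DMSO (adjusted p = 0.0136, and 0.0612 in DESeq2), with 16 counts over 3 KO libraries and 4 over 3 WT libraries, and had no counts in WT cells with MRTX1719. That call was lost without WT DMSO replicate 2 (adjusted p = 0.0511) or KO DMSO replicate 2 (adjusted p = 0.0856). Entpd1 was also called lower with MRTX1719 than with GSK3326595 in KO cells (adjusted p = 0.0325) and in WT cells (adjusted p = 0.024). Leaving out any KO MRTX1719 replicate ended the KO call (adjusted p = 0.0582 to 0.0762), and leaving out either WT MRTX1719 replicate ended the WT call (adjusted p = 0.14 and 0.138). Over the 17 libraries together Cd160 had 19 counts, Tox 12, Btla 5 and Pdcd1 1, and they were not tested there.

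Read over all 5 tested genes, the called genes numbered 3 of 5 in KO cells with MRTX1719 (beside 70.5% of 14835 genes), 3 of 5 in KO cells with GSK3326595 (52.8%), 0 of 5 in WT cells with MRTX1719 (7.53%) and 2 of 5 in WT cells with GSK3326595 (41.1%). Before adjustment, edgeR's test put 2 of the 5 past the same threshold in WT cells with MRTX1719, Havcr2 and Tigit, and DESeq2 gave no adjusted p for any of the 5 there. Between KO and WT cells under DMSO 4 of 5 were called, beside 73.2% of all genes. The effect of GSK3326595 differed between the lines for 1 of 5 (42.2% of all genes) and that of MRTX1719 for 3 of 5 (58.2%). Between MRTX1719 and GSK3326595, 2 of 5 were called in KO cells (53.2%) and 2 of 5 in WT cells (30%).

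On the ligand side, Pvr, which encodes the main ligand of TIGIT, moved with Tigit in KO cells. It had 251, 252 and 260 CPM with MRTX1719, 173, 179 and 173 CPM with GSK3326595, and 109, 112 and 113 CPM with DMSO. In WT cells it had 153 and 153 CPM with MRTX1719, 149, 149 and 148 CPM with GSK3326595, and 162, 169 and 166 CPM with DMSO. Treated KO libraries were thus the highest of their line and treated WT libraries the lowest of theirs.

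The log2 fold change of Pvr over DMSO was 1.19 ± 0.027 with MRTX1719 (adjusted p = 4.65e-81) and 0.65 ± 0.027 with GSK3326595 (adjusted p = 1.75e-48) in KO cells, and -0.11 ± 0.029 with MRTX1719 (adjusted p = 0.00575) and -0.16 ± 0.026 with GSK3326595 (adjusted p = 1.48e-07) in WT cells. The effects differed between the lines by 1.30 ± 0.039 for MRTX1719 (adjusted p = 3.44e-64) and by 0.81 ± 0.038 for GSK3326595 (adjusted p = 7.31e-43). Nectin2, a weaker ligand, was higher in KO cells with MRTX1719 (0.39 ± 0.035, adjusted p = 2.8e-20), whereas Nectin3 was lower there (-0.70 ± 0.081, adjusted p = 4.72e-14). In KO cells Nectin3 had 10.65, 10.1 and 10.5 CPM with GSK3326595, against 14.0, 13.4 and 13.8 CPM with DMSO. WT cells had 20.5 and 19.2 CPM with MRTX1719, 16.7, 19.25 and 18.0 CPM with GSK3326595, and 21.3, 21.4 and 22.2 CPM with DMSO. In T cells Pvr was lower with both MRTX1719 (-0.36 ± 0.072, adjusted p = 1.72e-05) and GSK3326595 (-0.49 ± 0.072, adjusted p = 5.42e-09).

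**Figure D5:**
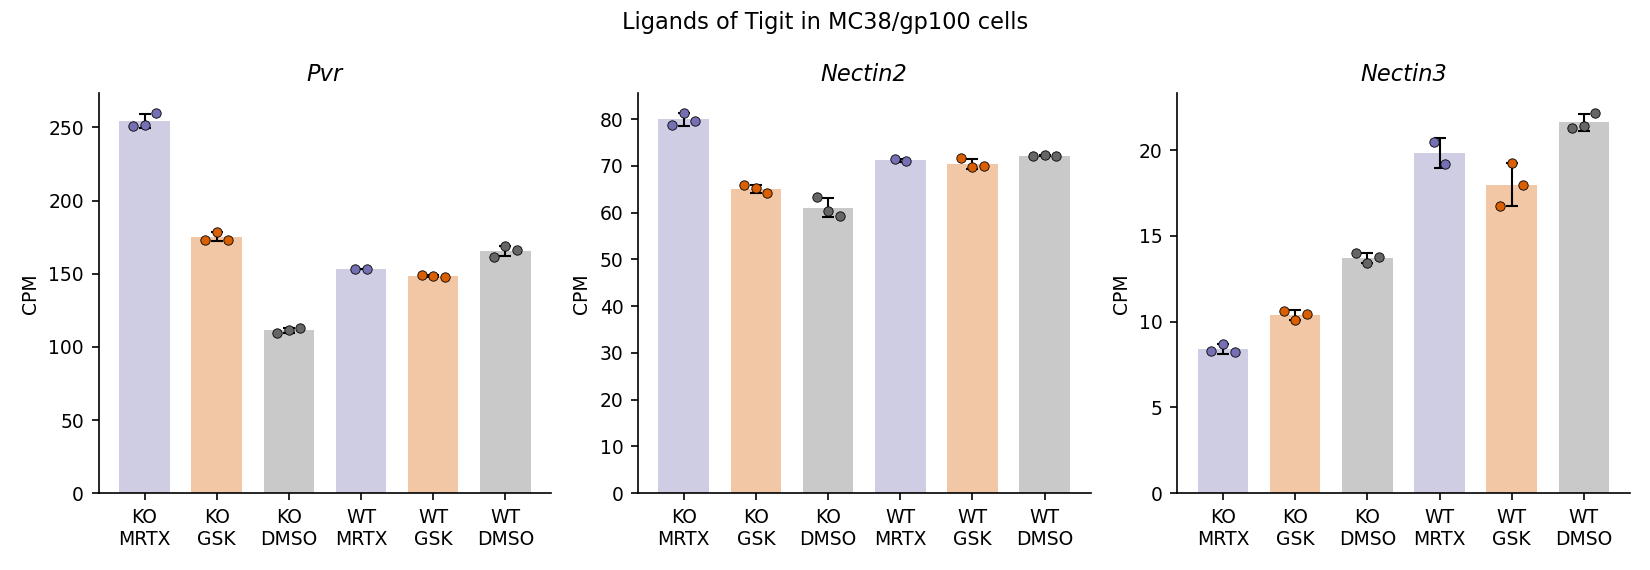
CPM of the TIGIT ligand genes Pvr, Nectin2 and Nectin3 (y axes) in MC38/gp100 KO and WT cells with MRTX1719 (MRTX), GSK3326595 (GSK) and DMSO. Points are libraries, bars are means and whiskers are SD (n = 3, or 2 for WT with MRTX1719); Pvr averages 254.5 CPM in KO cells with MRTX1719 and 111 CPM with DMSO.

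Among the other ligands of these receptors in MC38 cells, Cd274, which encodes PD-L1, was lower with GSK3326595 in KO cells (-0.57 ± 0.072, adjusted p = 7.47e-12) and in WT cells (-0.37 ± 0.058, adjusted p = 3.49e-08). Lgals3, which encodes galectin-3, a ligand reported for LAG-3, was higher in KO cells with MRTX1719 (1.02 ± 0.021, adjusted p = 5.6e-84) and with GSK3326595 (0.62 ± 0.022, adjusted p = 4.72e-57). Tnfrsf14, which encodes HVEM, the ligand of BTLA and CD160, averaged 10.7 CPM in KO cells and 5.45 CPM in WT cells under DMSO (0.98 ± 0.096, adjusted p = 7.76e-18). Of 11 ligand genes tested, 6 were higher and 4 lower in KO cells with MRTX1719, 4 higher and 6 lower in KO cells with GSK3326595, 1 higher and 2 lower in WT cells with MRTX1719, and 3 higher and 5 lower in WT cells with GSK3326595. In the same order, 70.5%, 52.8%, 7.53% and 41.1% of all genes tested were called.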

How the data were processed

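Poly(A) RNA of 9 T cell and 17 MC38/gp100 libraries was sequenced. For each kind of cell the authors deposited whole-number counts per gene with no normalization, and a normalized signal. The build was GRCm39, and the tools named in the submitters' processing notes are DESeq 1.18.0, TopHat2 2.0.10 and Bowtie2 2.1.0. What counted the reads, on which annotation and with which strand setting, is not given in the sources used here. The authors' normalized signal equals the deposited counts divided by 1 size factor per library (within 1e-06) and served to give the identifiers their gene symbols.

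The deposited counts entered edgeR 4.0.16 in R 4.3.3, 1 model per table over all its groups, without covariates, with TMM scaling, filterByExpr and robust quasi-likelihood testing. After the filter 13753 genes remained in T cells and 14835 in MC38 cells. P-values were adjusted by Benjamini-Hochberg over all genes tested, with a threshold of 0.05. The fits put the common biological coefficient of variation at 0.0372 (T cells) and 0.0198 (MC38). No library was counted as a repeat of another, since within groups the chi-square per gene between replicates was 1.96 to 3.74 (T cells) and 1.4 to 2.83 (MC38). CPM was computed on TMM-scaled library sizes, and per kilobase with the exon length of GENCODE M21 (GRCm38). Promoters are RefSeq's on GRCm38.p6, a different build from that of the reads.

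Alternatives were RLE scaling, no filter, DESeq2 1.42.0, a replicate block, only the groups compared, and each replicate left out. The 9 genes and all lists were chosen with earlier results of these data known. Besides the 9 genes, the text names from each list at most 4 genes per comparison. These are among those called with the largest change and at least 1 CPM in 1 of the groups. Pvr, Nectin2, Nectin3 and Cd226 could be named whatever their call, and are not given for every comparison. Markers given as a check of cell identity, such as Cd4, Ms4a1 or Cd3e in MC38 cells, and Lilrb4b fall outside that rule and were chosen after their values were seen. For patterns it names the 3 genes with the highest correlation.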

Additional observations from a re-analysis of the deposited data

Results flagged for a closer look

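In 4 cases the effect of a compound differed between the KO and the WT line by the test of the difference itself, in edgeR's fit over all MC38 libraries. For Tigit the effect of MRTX1719 was larger in KO than in WT cells by 2.42 on the log2 scale (adjusted p = 4.88e-33), and that of GSK3326595 by 1.07 (adjusted p = 1.64e-10). For Havcr2 the difference for MRTX1719 was 1.89 (adjusted p = 0.0101), at levels of 0.356 CPM in KO cells with MRTX1719 and 0.178 CPM with DMSO, and 0.397 CPM in WT cells with MRTX1719 and 0.710 CPM with DMSO. Without KO MRTX1719 replicate 2 it was 1.38 and no longer passed (adjusted p = 0.116). For Ctla4 it was 2.46 (adjusted p = 0.0418), on at most 9 counts per library in these groups. It did not pass with the replicate block (2.11, adjusted p = 0.0854) or without the filter (adjusted p = 0.0816), nor in 7 of 11 fits that left out 1 replicate (WT DMSO 2 or 3, WT MRTX1719 1, KO DMSO 1 or 3, KO MRTX1719 1 or 3), with adjusted p from 0.0531 to 0.277. The causes were not tested.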

How the results depend on the processing

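Of 795 values of these genes under the alternatives, 724 kept their direction and their side of the threshold. In T cells with GSK3326595 all 9 genes did so in every alternative, and in MC38 cells Tigit did so in every comparison and alternative that gave a value. The number of the 9 genes called between MRTX1719 and GSK3326595 in T cells was 6, 3 in DESeq2, and 4 to 6 with 1 replicate left out. Over all genes, WT MC38 cells with MRTX1719 had 1117 calls, and 433 to 912 with 1 replicate left out (433 without MRTX1719 replicate 1, 510 without MRTX1719 replicate 3), where a lone library is assumed to vary like the other groups. Signs turned only when a replicate was left out, and only where the gene did not pass the test. The ranges of the log2 fold change were then -0.0394 to 0.16 for Pdcd1 with MRTX1719 in T cells, -1.86 to 0.13 for Ctla4 with MRTX1719 in WT cells, -0.26 to 0.19 for Havcr2 with GSK3326595 in KO cells, -0.43 to 0.12 for Entpd1 with MRTX1719 in KO cells, -1.60 to 0.24 for Ctla4 between KO and WT cells, and, for the difference of the GSK3326595 effect between the lines, -0.36 to 1.49 for Ctla4 and -0.42 to 0.31 for Entpd1. DESeq2 gave no adjusted p for 15 values in MC38 cells. Same-numbered replicates of different groups did not deviate together (correlations of -0.0396 to 0.0386 in T cells and -0.0493 to 0.0454 in MC38 cells). Whether they shared a culture or an animal cannot be told from this, since counting noise can hide a common deviation. With the replicate block the T cell calls with GSK3326595 were 7195 genes instead of 7260, and the numbers of called genes among the 9 were 8, 5 and 6, as without it. Low counts limit what can be said of Tox and Pdcd1 in T cells and of Havcr2, Ctla4 and Entpd1 in MC38 cells, where a difference may not be detectable at this depth.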
